A study of Mus musculus with 16 samples.

Results

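The genes described here are those with the Polycomb protein PCGF5 at a start site in mouse embryonic stem cells (ES), in neural precursor cells (NPC) or in both. A gene was counted for a stage when a Flag-PCGF5 peak of that stage was centred no more than 2500 bp from where one of its protein-coding transcripts starts. Of 22232 protein-coding gene names, 3172 had such a peak in at least 1 stage, namely 58 in both stages, 117 in ES alone and 2997 in NPC alone. Each count was also taken after leaving out crowded windows, meaning stretches of 5 Mb in which the list had 5 or more peaks with a fold reaching 8, and 25, 87 and 2913 genes were then left.

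PCGF5 was pulled down through a Flag tag placed on the endogenous Pcgf5 gene of the mouse ES line 46C, which carries a Sox1-GFP reporter of neural fate. Undifferentiated ES were kept with LIF and 2i inhibitors on inactivated mouse fibroblasts, NPC were made from them in suspension with serum replacement and taken on day 6, and the labels call both Flag libraries wild type. The other 8 peak lists were of the histone marks H2AK119ub1 and H3K27me3 in both stages, each in wild type cells and in cells labelled shPCGF5, called PCGF5-depleted here. Each group had 1 library, so there was no replicate error and no test between stages or genotypes, and whether the tagged line was 1 clone is not given in the sources used here. Peak lists hold no expression values, so the identity of the cells was not checked against marker genes here.

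PCGF5 is the variable subunit of a form of Polycomb repressive complex 1 that attaches ubiquitin to histone H2A and lacks the CBX subunits that read H3K27me3. Polycomb repressive complex 2 places H3K27me3, and these marks occur together over many developmental genes with CpG-rich promoters. Both complexes hold lineage genes silent in pluripotent cells, and their target sets change as cells commit to the neural lineage.

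The ES list held 653 peaks and the NPC list 12013. Folds are enrichments over the background of the same library as the authors' peak caller gave them, so an ES fold and an NPC fold are not on a common scale. ES peaks had a median fold of 4.46 and a median width of 352 bp, and NPC peaks 2.22 and 412 bp. Of the ES peaks 25.3% lay at a start site and of the NPC peaks 26.1%, so the lists differed in length far more than in their share of promoter peaks. Neither file gave read totals, and the depth of the libraries is therefore unknown. Chromosome X, which holds 4.17% of the genes, had 0.216% of the NPC peaks, 0.459% of the ES peaks and 0.625 to 1.94% of the peaks of the histone lists. Chromosome 11, with 7.41% of the genes, had 39.4% of the ES peaks and 11.4% of the NPC peaks.

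The sequences under Flag-PCGF5 at shared genes are shown first, because they show how unlike each other the shared sites were. Each is the part of the bases covered by the ES and the NPC peak that holds no untranslated exon base, cut to 300 bases around its middle where longer, read from mm9 and written in the direction of the gene. Capitals mark a GC box, GGGCGG on either strand, which is a binding sequence of the factor SP1.
Ing2, chr8:48760819-48761118, minus strand: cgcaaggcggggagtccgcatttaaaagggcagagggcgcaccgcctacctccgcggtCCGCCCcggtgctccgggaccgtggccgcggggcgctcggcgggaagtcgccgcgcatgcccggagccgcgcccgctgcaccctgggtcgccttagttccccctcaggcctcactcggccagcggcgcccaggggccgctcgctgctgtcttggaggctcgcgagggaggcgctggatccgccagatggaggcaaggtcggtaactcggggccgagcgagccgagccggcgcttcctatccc
Numb, chr12:85262398-85262697, minus strand: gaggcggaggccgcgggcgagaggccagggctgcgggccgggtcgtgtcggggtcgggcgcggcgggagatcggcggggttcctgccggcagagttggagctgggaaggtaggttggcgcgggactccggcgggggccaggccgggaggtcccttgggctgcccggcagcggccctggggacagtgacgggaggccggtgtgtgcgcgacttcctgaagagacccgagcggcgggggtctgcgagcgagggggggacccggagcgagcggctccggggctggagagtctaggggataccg
Nr1d2, chr14:19071642-19071839, minus strand: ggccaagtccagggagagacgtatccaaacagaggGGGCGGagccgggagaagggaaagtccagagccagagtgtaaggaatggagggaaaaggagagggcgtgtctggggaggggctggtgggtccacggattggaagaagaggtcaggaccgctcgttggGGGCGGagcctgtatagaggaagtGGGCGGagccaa
Grb10, chr11:11925745-11925840, minus strand: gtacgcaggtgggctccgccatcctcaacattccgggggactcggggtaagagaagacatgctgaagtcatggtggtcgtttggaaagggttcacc
Lrrc68, chr7:20146923-20147073, minus strand: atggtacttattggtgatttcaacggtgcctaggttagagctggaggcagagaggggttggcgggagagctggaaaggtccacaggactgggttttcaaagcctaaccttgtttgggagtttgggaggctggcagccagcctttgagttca
Gm10717, chr9:3024412-3024532, plus strand: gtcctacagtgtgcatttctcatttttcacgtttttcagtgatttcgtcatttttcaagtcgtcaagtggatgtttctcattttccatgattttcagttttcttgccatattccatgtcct
The stretch at Ing2, which encodes a chromatin reader of methylated histone H3 and shares both its peaks with the uncharacterized gene AA386476, held 40 CpG dinucleotides in 300 bases with 74.0% G and C. The stretch at Numb, an inhibitor of Notch signalling in dividing neural progenitors, held 36, and the 198 bases at Nr1d2, the circadian repressor REV-ERB beta, held 9 and 3 GC boxes. By contrast the 151 bases at Lrrc68 held 2 CpG dinucleotides. The 121 bases upstream of Gm10717 had 36.4% G and C, and their central 30 bases occurred 14 times in the assembly, against once for the other stretches shown here.

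For the genes of 1 stage alone, the stretches under the strongest start-site peak of 3 genes are given in the same way, Men1 and Krba1 for ES and Nodal for NPC.
Men1, chr19:6335445-6335622, plus strand: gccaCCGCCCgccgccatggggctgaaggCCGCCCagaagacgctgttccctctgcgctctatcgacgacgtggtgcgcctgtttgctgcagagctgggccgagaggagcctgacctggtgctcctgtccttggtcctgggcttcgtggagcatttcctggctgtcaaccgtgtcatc
Krba1, chr6:48343969-48344160, plus strand: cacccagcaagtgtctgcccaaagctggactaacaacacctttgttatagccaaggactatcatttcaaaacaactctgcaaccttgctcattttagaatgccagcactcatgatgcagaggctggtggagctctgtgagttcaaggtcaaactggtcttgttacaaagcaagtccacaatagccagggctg
Nodal, chr10:60881926-60882225, plus strand: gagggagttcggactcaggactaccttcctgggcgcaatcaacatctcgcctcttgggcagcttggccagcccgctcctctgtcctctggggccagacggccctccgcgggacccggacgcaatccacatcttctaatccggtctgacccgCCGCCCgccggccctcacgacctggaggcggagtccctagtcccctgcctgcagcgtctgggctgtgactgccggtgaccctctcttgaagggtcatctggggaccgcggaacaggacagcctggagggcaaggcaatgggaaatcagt
The stretch at Men1, which encodes menin, a subunit of histone H3 methyltransferase complexes, held 13 CpG dinucleotides and 2 GC boxes in 178 bases, while that at Krba1 held 0 in 192. The stretch at Nodal, a ligand of the TGF-beta superfamily that keeps cells from the neural fate, held 20 CpG dinucleotides and 1 GC box in 300 bases.

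Of the 175 genes with Flag-PCGF5 in ES, 58 also had it in NPC, which is 33.1% of the ES genes (95% Wilson interval 26.6 to 40.4%) and 1.90% of the 3055 NPC genes. Over all protein-coding genes, 0.787% had a start-site peak in ES and 13.7% in NPC, so the share of ES genes found again lay above the NPC share of all genes. All intervals here are Wilson intervals and cover counting error alone. Some genes shared a peak, as 13 of the 58 shared genes, 24 of the 117 genes in ES alone and 586 of the 2997 in NPC alone did. Without the windows, 25 of 112 ES genes were also in NPC, 22.3% (15.6 to 30.9%) of the ES genes and 0.851% of the NPC genes, beside 13.2% of all genes.

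The overlap depended on the length of the NPC list. With the NPC list limited to its 653 highest-scoring peaks, as many as in ES, 26 of 175 ES genes were shared, 14.9% (10.3 to 20.9%), beside 0.729% of all genes. With the windows left out as well, so that each list kept 388 peaks, 3 of 112 ES genes were shared, 2.68% (0.915 to 7.58%), beside 0.373% of all genes. These 3 genes were Grb10, Gm10717 and Gm10718. All 388 ES peaks outside the windows were kept there, and the NPC list alone was cut by score. With shorter lists both the shared part and the share of all genes fell, and in each of these settings the interval of the shared part lay above the share of all genes. In the last setting, however, Gm10717 and Gm10718 had the same peak in each stage, in a sequence with copies elsewhere in the assembly. The interval counts them as separate genes, so it does not settle whether that share stood above all genes.

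**Figure D1:**
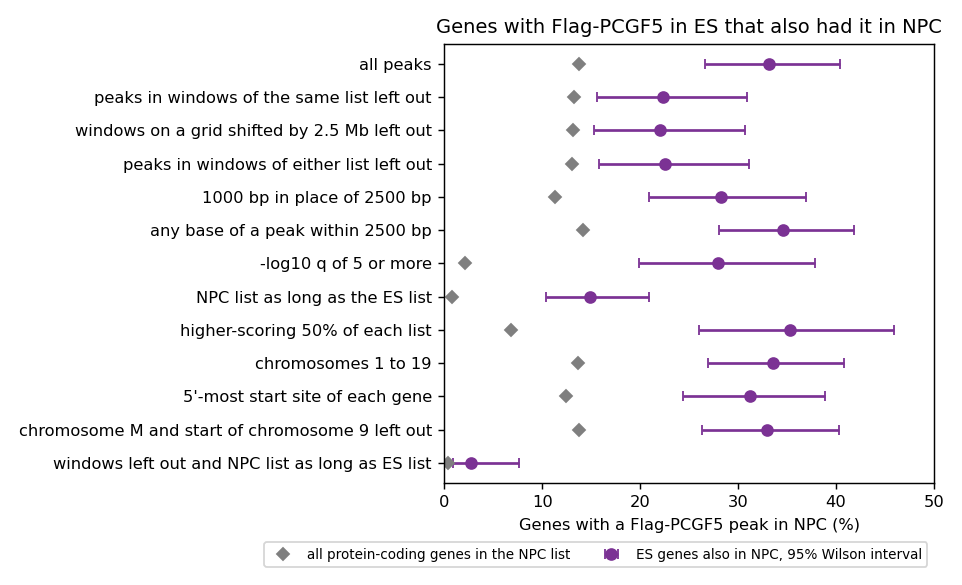
Share of the genes with Flag-PCGF5 in ES that also had it in NPC (%), by setting, with 95% Wilson intervals, and the share of all protein-coding genes in the NPC list of that setting (diamonds). The share was 33.1% with all peaks, 22.3% without the windows and 2.68% without the windows and with lists of equal length.

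The windows held 63 of the 175 ES genes and a smaller part of the NPC genes. There were 9 windows in ES, of which 7 lay on chromosome 11 and 1 each on chromosomes 2 and 15, and 7 in NPC, of which 4 lay on chromosome 11 and 1 each on chromosomes 2, 9 and 15. Of these, 5 were windows of both lists. On chromosome 11 the high-fold peaks began at 3.03 Mb in both stages and went on to 9.32 Mb, where the 2 windows held 24 and 27 ES peaks and 57 and 75 NPC peaks of such a fold. On chromosome 2 they did not coincide, running from 171.9 to 173.4 Mb in ES and from 179.5 to 179.8 Mb in NPC. When peaks in windows were left out, 24 of the 58 shared genes lost both stages, 8 kept NPC alone and Usp28 kept ES alone.

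The genes of highest fold lay in the chromosome 2 windows. In ES they were Ankrd60 (fold 166), Rbm38 (92.1), an RNA-binding target of p53, and Zbp1 (55.2), a sensor of Z-form nucleic acids. The kinase gene Aurka and the polyadenylation factor gene Cstf1 shared 1 ES peak of fold 72.8, centred at 288 bp from the Cstf1 start site, in a non-coding part of an exon, and at -487 bp from the divergent Aurka start site. In NPC the proteasome gene Psma7 and Ss18l1, which encodes a subunit of neuronal chromatin remodellers, shared 1 peak of fold 324. It was followed by Lsm14b (170), Gm10711 (139) and the TFIID subunit gene Taf4a (84.6). None of these 10 genes had a start-site peak in the other stage. Of all genes 0.787% had one in ES and 13.7% in NPC, so few or none of so few genes would at those shares. Whether the windows reflect the protein, the copy number of these regions or the libraries was not tested. The stretches under the start-site peak of highest fold in each stage are shown because repeated sequence was a concern here. Their central 30 bases occurred once in the assembly as an exact match. This search covered neither near matches, the rest of these peaks nor other peaks of the windows, so whether the windows hold repeats was not tested.
Ankrd60, chr2:173401803-173401988, minus strand: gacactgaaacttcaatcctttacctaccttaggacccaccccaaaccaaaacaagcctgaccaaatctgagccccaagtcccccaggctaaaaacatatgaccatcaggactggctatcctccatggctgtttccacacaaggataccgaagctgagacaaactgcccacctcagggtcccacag
Ss18l1, chr2:179777687-179777986, plus strand: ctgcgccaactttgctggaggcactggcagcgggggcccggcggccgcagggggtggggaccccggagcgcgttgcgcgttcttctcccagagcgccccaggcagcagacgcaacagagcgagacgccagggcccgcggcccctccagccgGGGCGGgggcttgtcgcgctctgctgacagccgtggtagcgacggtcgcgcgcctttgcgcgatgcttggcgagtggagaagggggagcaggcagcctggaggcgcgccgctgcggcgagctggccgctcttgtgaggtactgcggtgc
The ES stretch held 1 CpG dinucleotide in 186 bases, and the NPC stretch 36 in 300.

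Outside the windows 25 genes had Flag-PCGF5 in both stages. For 13 of them an ES and an NPC peak overlapped, and the median distance between the nearest peak centres was 684 bp. Folds are those of the strongest start-site peak of each stage, which were not always the nearest pair. Several encode regulators of transcription. At Nr1d2 the ES peak had a fold of 4.04 with its centre 35 bp before the start site, and the NPC peak a fold of 1.81 at 184 bp after it. At Ing2 and AA386476, whose start sites lie close together on opposite strands, the stronger common ES peak had a fold of 4.42 and the common NPC peak a fold of 2.00. The NPC peak covered the start sites of both genes, and this ES peak covered that of Ing2 and began just after that of AA386476.

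Cux1, a homeodomain factor of cortical neurons, had an ES peak of fold 2.98 and an NPC peak of fold 1.95, both in an intron and not overlapping. Ppard, a nuclear receptor for fatty acids, had folds of 3.30 and 2.35. Bcl3, an atypical inhibitor of NF-kappa B, had folds of 3.16 and 2.22 in a coding exon. The centres of these peaks were 606 to 2382 bp apart between the stages, and the peaks did not overlap.

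Of the genes with roles in neurons and progenitors, Numb had nearly coincident peaks in an intron, with centres 15 bp apart, with folds of 2.43 in ES and 2.00 in NPC. Nrn1, which encodes the neurite-promoting protein neuritin, had folds of 3.95 and 1.89 before its start site. Syngr1, a protein of synaptic vesicles, had folds of 2.98 and 1.85. Calm3, one of the calmodulin genes, had the highest ES fold of the 25, 5.96, in a peak just past the 3' end of the gene, which was counted because a short transcript starts 2359 bp before its centre. The NPC peak of Calm3, of fold 1.99, lay 8836 bp away at another start site, and the nearer ES peak, of fold 4.15, was 6316 bp from it. At Calm3 the stages thus shared the gene and not the site.

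Grb10, an imprinted adaptor of the insulin receptor, had the highest NPC fold of the 25, 9.97, in an intron near a start site inside the gene. The ES peak that overlapped it had a fold of 3.31, and the stronger ES peak, of fold 4.42, lay 56.4 kb away at another start site of the gene. Grb10 carried a peak in each of the 8 histone lists. It lay at 11.9 Mb on chromosome 11, between 2 windows of both lists. The uncharacterized gene 6430573F11Rik had folds of 2.24 in ES and 2.36 in NPC, and Lonrf1, which encodes a RING finger protein, 2.78 and 2.82. Smek2, a regulatory subunit of protein phosphatase 4, had a fold of 5.00 in ES and 1.96 in NPC, with peaks that began at the same base.

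Gm10717 and Gm10718 shared 1 peak in each stage near the start of chromosome 9. Its ES fold was 2.22 and its NPC fold 1.38, the lowest of the 25 in either stage, yet its −log10 q-values were 9.03 and 20.8. The peak edges of the 2 stages lay within 5 and 11 bp of each other. Because copies of this sequence occur elsewhere in the assembly, it is uncertain where its reads came from. The other shared genes outside the windows were Fuz, a planar cell polarity effector needed for cilia, Gbas, Lcn2, Lrrc47, Lrrc68, Mier2, Pacs2, Prr12 and Wtip, with ES folds between 2.61 and 4.58 and NPC folds between 1.91 and 2.83.

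**Figure D2:**
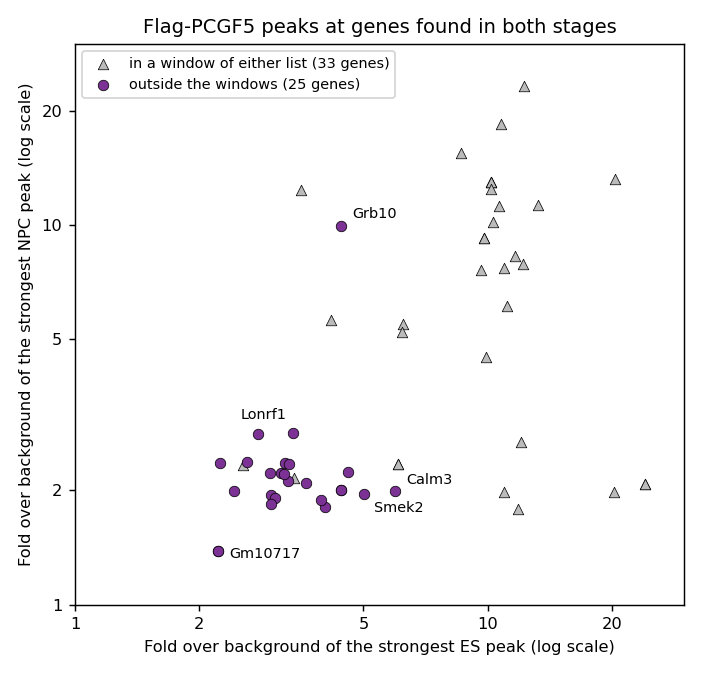
Fold over background of the strongest start-site peak in ES (x axis) and in NPC (y axis) at the 58 genes found in both stages, on log scales, with genes outside the windows as circles and the others as triangles. The scales of the axes are not comparable, and the strongest peaks of a gene need not lie at 1 site. Outside the windows the highest NPC fold was 9.97, at Grb10, and the highest ES fold 5.96, at Calm3.

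Of the 117 genes with Flag-PCGF5 in ES alone, the median ES fold was 4.19, and 3.46 for the 87 left without the windows. The highest q-value ranks outside the windows included Men1 (fold 11.2), Rps27a (10.4), Krba1 (9.50) and Fbll1 (8.13). Rps27a, which encodes a ribosomal protein fused to ubiquitin, and 1700034F02Rik had a single peak between them. The peak centre lay at -107 bp from the start site of Men1 and at 36 bp from that of Rps27a. Fbll1 carried H3K27me3 in wild type ES (fold 5.89) and in wild type NPC (fold 6.05).

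Usp28, a ubiquitin-specific protease, was in this group only without the windows. Its ES peak had a fold of 10.9, and its overlapping NPC peak, of fold 1.99, lay in a window of the NPC list. Pcdhgc5, of the clustered protocadherins that give neurons their identity, had 3 ES peaks, the strongest of fold 5.39, and carried both marks in wild type ES (H2AK119ub1 at fold 5.74, H3K27me3 at fold 5.89). The mitochondrial genes mt-Cytb and mt-Nd6 shared 1 ES peak with a fold of 1.77 and a −log10 q-value of 91.4, on DNA that carries no nucleosomes. The PCGF5-depleted ES H2AK119ub1 list and the wild type NPC H3K27me3 list also held a peak there, of folds 3.36 and 3.62.

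For the genes in ES alone, the nearest NPC peak lay at a median of 39605 bp from a start site, beside 89154 bp for all 19177 genes with no start-site peak in NPC. It lay within 5000 bp for 6 of 117, 5.13%, beside 3.57%. At the limit of the ES list, Gm17673 at -2441 bp (fold 2.14) was just inside, and Pcdhb22 at -2548 bp (fold 3.00) and Phf15 at 2581 bp (fold 14.8) were just outside. In NPC, 31 genes lay less than 100 bp inside the limit with a median fold of 2.16, and 28 lay up to 100 bp outside it with a median fold of 2.25.

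The 2997 genes with Flag-PCGF5 in NPC alone had a median NPC fold of 2.18, with quartiles of 2.00 and 2.53. Outside the windows the highest ranks included 4933411K20Rik (fold 12.9), Aqp11 (6.87), Frg1 (6.68) and Slc25a4 (6.62). Aqp11 encodes an intracellular aquaporin and Slc25a4 the mitochondrial ADP/ATP carrier. Rabac1 (6.10), a prenylated RAB acceptor, Fignl1 (6.11), an ATPase of DNA repair, Tmc5 (6.13) and Asah1 (5.52), the lysosomal acid ceramidase, followed. Sept5, a septin of nerve terminals, ranked among them by q-value (−log10 q 21.4) with a fold of 1.39. Of the 10 genes of highest rank, 4933411K20Rik and Sept5 carried H3K27me3 in wild type NPC, at folds of 7.63 and 3.90. This mark was found at 15.7% of all genes and 25.4% of the genes in NPC alone, so the count does not set these 10 apart.

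Among the genes the study turns on, Nodal had 2 NPC start-site peaks, the stronger of fold 2.30 in an intron 1356 bp after a start site. It carried H3K27me3 in wild type NPC (fold 7.13) and in none of the other 7 histone lists. Pou3f2, a neural POU factor, had an NPC peak of fold 2.42 in its coding exon, and Cdh2, the neural cadherin, one of fold 1.91 at 184 bp. Pou3f2 carried H3K27me3 in all 4 H3K27me3 lists. The left-right genes Lefty1 and Lefty2, the progenitor filament gene Nes and Pcgf5 itself had no Flag-PCGF5 peak at a start site in either stage. By ChIP-qPCR, however, the paper reports PCGF5 at the promoters of Lefty1, Lefty2 and Nes in NPC, and it counts Lefty1 and Lefty2 among PCGF5 targets. A missing peak in a single library of unknown depth does not show that the protein was absent. Lefty1 and Lefty2 carried H3K27me3 in wild type NPC at folds of 4.71 and 6.55, and Pcgf5 in wild type ES and NPC at 4.56 and 6.23.

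Peaks gathered at the start site in all groups, most of all at genes in NPC alone. There 64.4% of the strongest peaks had their centre within 500 bp of the start site, against 57.3% at genes in ES alone. At the shared genes 44.8% of the ES peaks and 55.2% of the NPC peaks did. Among the genes in NPC alone 32.9% of the peak centres fell in an intron and 10.1% in a coding exon. The share in a coding exon was 12.8% at genes in ES alone and 15.5% at shared genes in either stage.

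**Figure D3:**
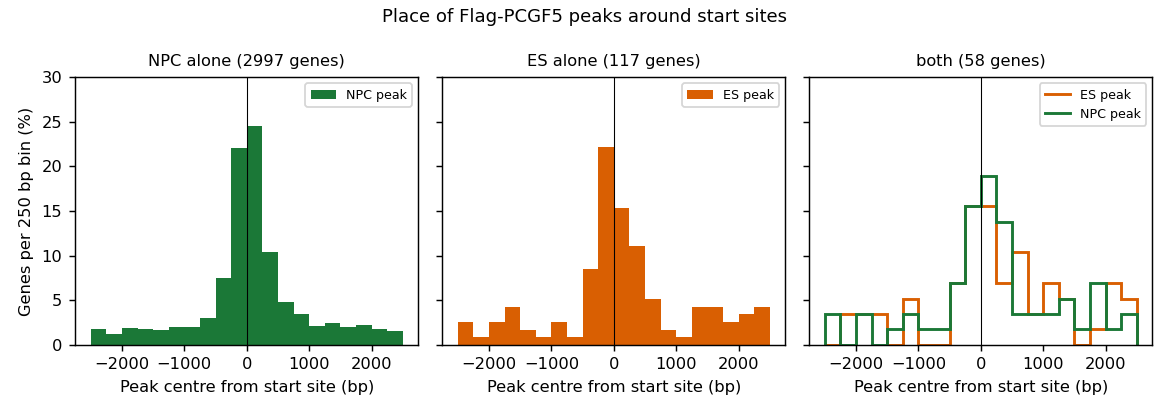
Distance of the centre of the strongest Flag-PCGF5 peak from the nearest start site (bp, negative upstream), as the share of genes per 250 bp bin (%), for genes in NPC alone, ES alone and both. The bins beside the start site held the most genes in each panel, up to 24.5% in NPC alone.

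Start sites of all 3 groups were rich in CpG. Within 500 bp of the 5'-most start site, promoters with at least 50% G and C and an observed over expected CpG of 0.6 or more were called CpG-rich. They made up 72.4% (59.8 to 82.2%) of the shared genes, 57.3% (48.2 to 65.9%) of the genes in ES alone and 66.0% (64.3 to 67.6%) of those in NPC alone, against 44.7% of all genes. The GC box occurred in 81.0%, 81.2% and 81.5% of these promoters and in 60.3% of all, so it did not tell the groups apart. The ETS core CCGGAAG was found in 25.9% (16.3 to 38.4%), 25.6% (18.6 to 34.2%) and 25.1% (23.5 to 26.6%) against 19.2%, and without the windows in 20%, 20.7% and 24.8%. The excess over all genes thus held for genes in NPC alone, while the intervals of the other groups held the share of all genes. The NRF1 core CGCATGCG was found in 5.17% (1.77 to 14.1%), 7.69% (4.10 to 14.0%) and 4.14% (3.48 to 4.91%) against 3.26%. Without the windows it was at 10.3% (5.54 to 18.5%) of the genes in ES alone. Other motifs were counted too and are not reported here. No motif share was taken among CpG-rich genes alone, so these excesses were not separated from CpG content. The CCAAT box CCAAT, on either strand, was found in 58.6% (45.8 to 70.4%), 65.0% (56.0 to 73.0%) and 65.8% (64.1 to 67.5%) against 70.4%, and in 68.0% of the 25 shared genes outside the windows.

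The overlap of the stages was also taken by promoter composition. Of the ES genes with a CpG-rich promoter 38.5% (29.9 to 47.9%) were also in NPC, beside 20.3% of all CpG-rich genes. Of those with another promoter 24.2% (15.5 to 35.8%) were, beside 8.43%. Without the windows the shares were 27.9% (18.7 to 39.6%) beside 19.5%, and 13.6% (6.40 to 26.7%) beside 8.13%, and both intervals then held the share of all genes of the same kind.

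Most genes with Flag-PCGF5 carried neither mark. In wild type NPC 81.0% of the shared genes, 68.4% of the genes in ES alone and 74.2% of those in NPC alone had neither H2AK119ub1 nor H3K27me3 at a start site, beside 84.1% of all genes. H3K27me3 of wild type NPC was found at 25.4% (23.9 to 27%) of the genes in NPC alone and at 31.6% (23.9 to 40.5%) of those in ES alone, beside 15.7% of all genes. At the 58 shared genes it was found at 19% (10.9 to 30.9%), an interval that holds the share of all genes. Without the windows the shares were 28.0% (14.3 to 47.6%) of the 25 shared genes, 26.4% (18.3 to 36.6%) of the genes in ES alone and 25.7% (24.1 to 27.3%) of those in NPC alone, so the shared genes stood below the other groups only with the windows counted. Genes that had Flag-PCGF5 in ES alone thus stood at no lower a share of NPC H3K27me3 than genes in NPC alone, and the intervals of these groups overlapped.

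In wild type ES, H3K27me3 was found at 23.9% (17.1 to 32.4%) of the genes in ES alone and 20.2% (18.8 to 21.6%) of those in NPC alone, beside 13.4% of all genes, and at 8.62% (3.74 to 18.6%) of the shared genes. Without the windows these were 23.0%, 20.2% and 12%. H2AK119ub1 of wild type ES was found at 10.3% (5.97 to 17.1%) of the genes in ES alone and 10.9% (9.81 to 12%) of those in NPC alone, beside 6.69%. In wild type NPC it was found at 5.98% (2.93 to 11.8%) and 8.21% (7.28 to 9.24%), beside 4.98%. Of the 58 shared genes, 5 had H2AK119ub1 in wild type ES and 5 in wild type NPC. H2AK119ub1, the product of the complex, was thus found at fewer genes than H3K27me3 in ES alone and in NPC alone, as over all genes, and at as many of the shared genes in wild type ES.

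**Figure D4:**
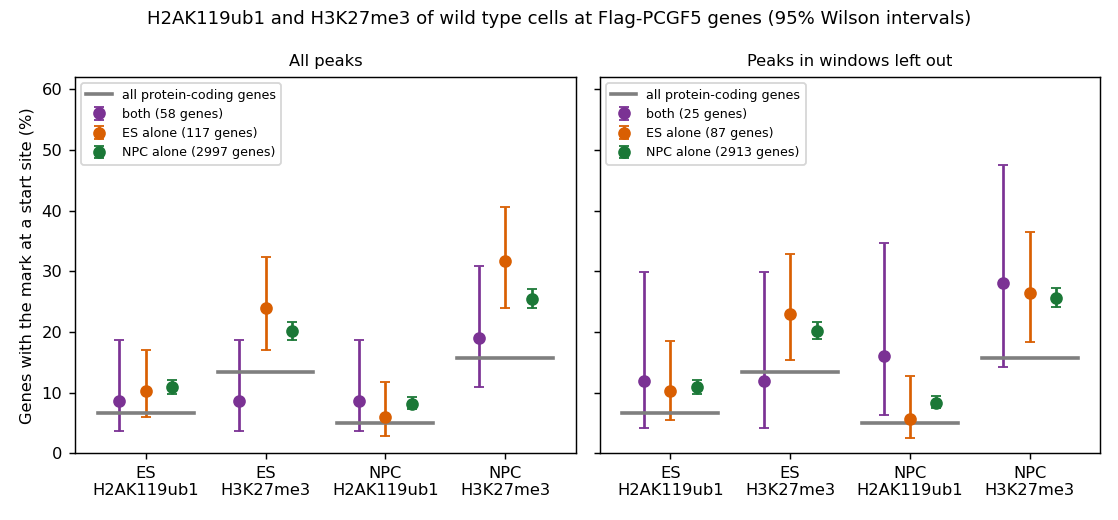
Share of genes (%) with an H2AK119ub1 or H3K27me3 peak of wild type ES or NPC at a start site, for genes with Flag-PCGF5 in both stages, in ES alone and in NPC alone, with all peaks (left) and without the windows (right), with 95% Wilson intervals and the share of all protein-coding genes as grey lines. With all peaks H3K27me3 of NPC was at 25.4% of the genes in NPC alone, against 15.7% of all genes.

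The same shares were taken by promoter composition. Among CpG-rich promoters, 25.5% (23.6 to 27.5%) of the genes in NPC alone carried H3K27me3 in wild type NPC, beside 21.9% of all CpG-rich genes. Among the other promoters, 25.3% (22.7 to 28%) did, beside 10.6%. The difference from all genes was therefore larger at promoters that were not CpG-rich.

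In PCGF5-depleted cells the shares lay close to those of wild type cells. At the genes in NPC alone, H3K27me3 was found in depleted NPC at 24.2% and in depleted ES at 19.8%, beside 15.4% and 12.9% of all genes, and H2AK119ub1 at 7.47% and 9.24%, beside 4.17% and 5.96%. Of the 2997 genes, 583 had H3K27me3 in NPC of both genotypes, 179 in wild type alone (5.97%) and 143 in PCGF5-depleted NPC alone (4.77%), beside 3.74% and 3.54% of all genes. For H2AK119ub1 in NPC, 144 had it in both, 102 in wild type alone (3.40%) and 80 in depleted NPC alone (2.67%), beside 2.46% and 1.65%. At these genes both marks were thus found in wild type NPC alone more often than in PCGF5-depleted NPC alone, as over all genes, with 1 library a genotype. At the 117 genes in ES alone, H3K27me3 was in wild type NPC alone at 9 (7.69%) and in depleted NPC alone at 6 (5.13%). Of all genes 3.74% and 3.54% were. H2AK119ub1 was at 4 (3.42%) and 7 (5.98%), beside 2.46% and 1.65%. These counts are too small to read a direction from. At the 25 shared genes outside the windows, Cux1, Grb10 and Nrn1 carried both marks in wild type ES, 12% beside 5.34% of all genes. Neither mark was found at 88% of the 25 in wild type ES and 72% in wild type NPC, beside 85.3% and 84.1%. The intervals of these shares all held the share of all genes. H2AK119ub1 was at 16% (6.40 to 34.7%) of the 25 in wild type NPC and in depleted ES, beside 4.98% and 5.96%. In depleted NPC it was at 20% (8.86 to 39.1%), beside 4.17%, and both marks were at 16% in wild type NPC, beside 4.73%. The intervals of these H2AK119ub1 shares lay above all genes. Each of them, however, counts Gm10717 and Gm10718, which shared 1 Flag-PCGF5 peak in each stage, as separate genes. No mark in any of the 8 lists was found at 17 of the 25, among them Numb, Nr1d2, Ing2 and Smek2. The share of all genes without a mark in the 8 lists was not taken.

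The gene groups below were read against the same shares of all genes, 0.787% in ES and 13.7% in NPC, and 20.3% for CpG-rich genes in NPC. No member of the 13 groups was found in both stages, where 0.261% of all genes were. At that share a single group would hold few or none, and the 13 groups were not read together against it. Of 49 genes of TGF-beta superfamily signalling, 16 had Flag-PCGF5 in NPC, 32.7% (21.2 to 46.6%), and 0 in ES, for which the interval went up to 7.27%. The list was chosen with earlier results of these data known. Its NPC genes were the ligands Nodal, Bmp6, Inhba, Inhbb, Tgfb1 and Tgfb3, the antagonists Fst and Nog and the receptors Acvr2b and Tgfbr1. The others were the signal carriers Smad1 and Smad4, the inhibitory Smad7, the nuclear partner Foxh1 and the targets Id1 and Id3. Over the 16 genes the folds were low, with a median of 2.26, and highest at Inhbb (3.62) and Acvr2b (3.42). Of the 16, 7 carried H3K27me3 in wild type NPC, as 23 of all 49 did, and Inhbb alone carried H2AK119ub1, as 7 of the 49 did. The peaks at Smad4 (fold 2.83), Smad7 (2.70), Smad1 (2.15) and Acvr2b stood on start sites without either mark in any list.

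Of 42 Polycomb complex genes, 9 had Flag-PCGF5 in NPC, 21.4% (11.7 to 35.9%), and 2 in ES. The NPC genes were the complex 1 genes Pcgf2, Ring1, Kdm2b, Phc2, L3mbtl2, Dcaf7 and Csnk2a2 and the complex 2 genes Eed and Phf1, with Dcaf7 highest at a fold of 3.67. The ES genes were Aebp2, a cofactor of complex 2, with a fold of 3.19, and Scmh1, a complex 1 component, with 3.38.

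Developmental genes were found in NPC at shares whose intervals held that of all genes. None was found in ES, for which the intervals went up to 7.71% for neural fate, 13.3% for pluripotency, 14.3% for mesoderm and endoderm and 8.97% for Hox genes and held the 0.787% of all genes. Of 46 neural fate genes 7 had Flag-PCGF5 in NPC, 15.2% (7.57 to 28.2%), among them Cdh2, Meis1, Meis2, Neurog1, Pax6 and Pou3f2. Sox1, the reporter gene of the line, Map2 and the pluripotency gene Tfcp2l1 matched no protein-coding entry of the annotation by symbol and were not analysed here. Meis1, a homeodomain factor, had a fold of 11.2 in a window, and the others named 1.91 to 2.42. Of 25 pluripotency genes 4 had it (Klf5, Lin28a, Prdm14 and Tet2), of 23 mesoderm and endoderm genes 4 (Gata5, Gata6, Lhx1 and T) and of 39 Hox genes 4 (Hoxb2, Hoxb3, Hoxb5 and Hoxc11). All 4 Hox genes and all 4 mesoderm and endoderm genes carried H3K27me3 in wild type NPC, as 38 of the 39 Hox genes and 17 of the 23 mesoderm and endoderm genes did.

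Proteasome and ribosomal protein genes stood beside TGF-beta signalling at the highest shares. Of 39 proteasome genes 13 had Flag-PCGF5 in NPC, 33.3% (20.6 to 49.0%), and of 83 ribosomal protein genes 20 did, 24.1% (16.2 to 34.3%). The ribosomal interval held the 20.3% of CpG-rich genes in NPC. The peak centre lay within 500 bp of the start site at 11 of the 13 and 18 of the 20. None of these genes carried H3K27me3 in wild type NPC, where 2 of all 39 proteasome genes and 0 of all 83 ribosomal protein genes did. Respiratory chain genes stood at 14.9% (8.95 to 23.9%) and splicing genes at 16.3% (8.51 to 29.0%). In ES these groups gave Rps27a, Ndufb10 (fold 4.19) and Uqcrc1 (4.60), subunits of respiratory complexes I and III, and Hnrnpab (18.6, in a window), an RNA-binding protein. Zfp genes, most of which encode zinc finger proteins, stood at 17.7% (14.2 to 22%) of 367 and histone genes at 13.4% (7.23 to 23.6%) of 67. Of 1113 olfactory receptor genes 4 had a peak in NPC, 0.359%.

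**Figure D5:**
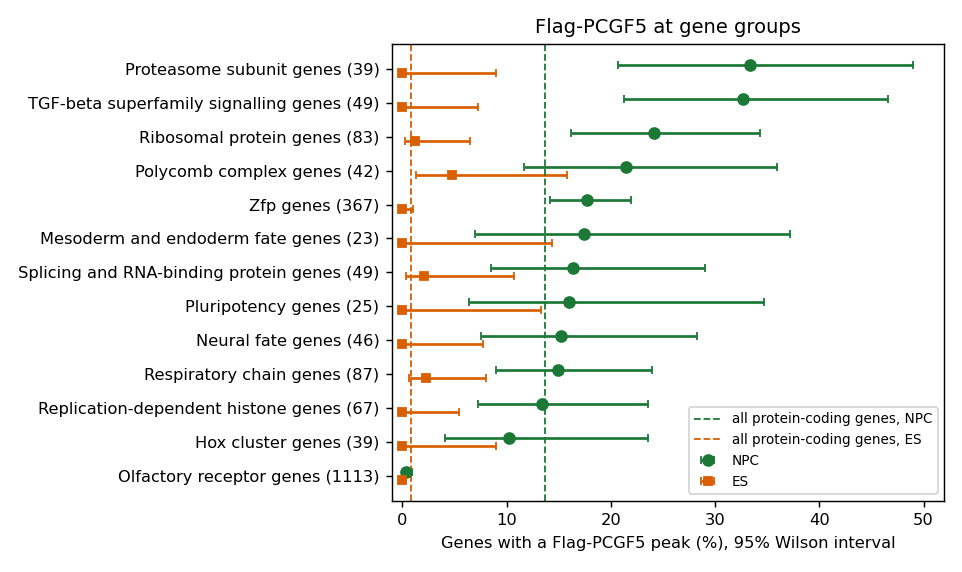
Share of the genes of each group (%) with a Flag-PCGF5 peak at a start site in NPC (circles) and ES (squares), with 95% Wilson intervals, the number of genes in parentheses and the shares of all protein-coding genes as dashed lines. Proteasome genes (33.3%) and TGF-beta superfamily genes (32.7%) stood highest in NPC and olfactory receptor genes lowest (0.359%).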

How the data were processed

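Peak lists were used for 10 of 16 libraries, 2 of Flag-PCGF5 and 8 of histone marks, and the 6 input libraries were not analysed here. According to the methods, the authors used Trimmomatic for trimming, Bowtie2 for alignment to mm9 and Picard for duplicates. MACS2 (2.1.0 per the submitters' processing notes) then called peaks library by library, without pooling. Whether broad peak calling was used is not stated, so whether a fold refers to a summit or to the whole peak is uncertain. Flag chromatin was doubly crosslinked and sonicated, histone chromatin digested with micrococcal nuclease. The deposited files give per peak a score, the fold (a ratio to background) and the −log10 values of p and q. Library depth is not in them, so list length, which sets all counts here, cannot be told apart from depth.

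Start sites were those of protein-coding transcripts in GENCODE M1 on NCBIM37 (mm9), with coordinates counted from 1. Peaks were assigned, base composition was read and 95% Wilson intervals were computed in Python 3.11.15 with pandas 2.3.3, scipy 1.17.1 and pysam 0.24.0. The assignment was tested on simulated data with planted peaks. With 1 library a group no test was made. Named were all shared genes outside the windows (at most 25), the 10 genes of highest −log10 q-value in each stage alone, the 5 of highest fold in the windows of each stage, group members found in ES, and genes of the study. Other list members were named by membership, and printed sequences were chosen after values were seen. The members, gene lists and windows were chosen with earlier results of these data known. A few genes that meet these rules are not reported here.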

Additional observations from a re-analysis of the deposited data

How the results depend on the processing

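Of 108 values recomputed under 10 other settings and 2 more chosen after seeing the data, 75 moved by at most 1.5 times (counts) or stayed within the Wilson interval (shares). Without peaks in windows of the same list, ES genes numbered 112, shared genes 25 and the shared part of the ES genes 22.3%. On a window grid shifted by 2.5 Mb these were 109, 24 and 22%, and with windows of either list left out 111, 25 and 22.5%. With 1000 bp in place of 2500 bp, 33 genes were shared and 9.09% of them carried H3K27me3 in wild type NPC. With a −log10 q-value of at least 5, there were 93 genes in ES, 468 in NPC, 26 shared, 67 in ES alone and 442 in NPC alone. In the higher-scoring 50% of each list these were 85, 1506, 30, 55 and 1476. With the NPC list cut to the length of the ES list, 162 genes were in NPC, 26 shared (14.9% of the ES genes) and 136 in NPC alone, of which 22.1% carried H3K27me3 in wild type NPC. With both windows and list length changed (added later), there were 112 genes in ES, 83 in NPC, 3 shared (2.68%), and 80 in NPC alone. H3K27me3 of wild type NPC was then at 28.8% of the genes in NPC alone and 100% (43.9 to 100%) of the 3 shared genes, beside 15.7% of all genes. Of these 3, Gm10717 and Gm10718 shared 1 peak in each stage, and the interval counts them as separate genes. Fewer peaks were counted in each of these settings except the 1000 bp setting, which changed the distance. Leaving out chromosome M and the first 5 Mb of chromosome 9 (added later), chromosomes 1 to 19, any base of a peak and the 5'-most start site moved no value by that much. The share of genes in ES alone with H3K27me3 in wild type ES ranged from 19 to 25.2% over all these settings. No paired analysis was possible because each group had 1 library. Depth is unknown and limits how far a missing peak in ES can be read as missing protein.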
